A study of Mus musculus with 8 samples.

Results

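Cytochrome P450 enzymes, encoded by the Cyp genes, are haem proteins that insert an oxygen atom into steroids, fatty acids, vitamins, drugs and other small molecules. Of 86 Cyp genes with a probe on the array (symbols that start with Cyp and a digit, Cyp1b1 set aside), 45 were kept, because a probe had a detection p under 0.05 on 2 or more arrays. They stand among 12476 genes with such a probe. RNA came from kidney cells of adult mice that were collected by magnetic (MACS) sorting for CD31, a surface protein of endothelium, with 1 Illumina BeadChip array per sample. Mutant males (replicates 2 and 4), wildtype males (2 and 4), mutant females (1 and 3) and wildtype females (1 and 3) were measured, so that each group had 2 arrays. All mice were C57B6/CD1, and both Crim1 alleles of the mutants were KST264, made by gene trapping. The Crim1 protein spans the cell membrane and binds growth factors. The design text names 4 pairs of mice, which would give 1 mouse per array, but no label ties an array to an animal, so the p-values cover the spread between arrays, part of which may be technical.

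In the kidney, P450 enzymes of the 2C and 2J subfamilies are known to turn arachidonic acid into epoxides that act on vessels and salt transport, and those of the 4A and 4F subfamilies are known to hydroxylate the end of fatty acid chains. Other P450s of this organ activate or inactivate vitamin D and oxidise drugs. Most sit in the endoplasmic reticulum and are best known from the proximal tubule, and several are known to differ between male and female mice.

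Values below are log2 intensities after background correction and quantile normalization, differences are on that scale with a standard error from limma, and a gene is represented by its brightest tested probe. Adjusted p-values are from limma with Benjamini-Hochberg adjustment over all 23841 tested probes, with a threshold of 0.05. The levels of different genes cannot be set against each other, because each rests on its own probe. Xist, Eif2s3y and Kdm5d matched the labelled sex on all 8 arrays, and Crim1 was lower in mutants by both of its tested probes (log2 differences -2.33 and -2.29, adjusted p = 0.0370 for each). The raw median signal of the arrays ran from 83.2 to 98.5, and 45.1% to 48.7% of probes were detected. On the second principal component mutant male 2 stood at 53.8 and wildtype male 4 at -39.87, at opposite ends. The remaining arrays lay between -14.85 and 3.47. The counts below are also given without mutant male 2, and fits without each other array are described further on. Markers of endothelium were present, with 11 of 11 tested genes of a pan-endothelial list detected on every array, and so were markers of proximal tubule, with 13 of 14. In such a sample, fewer cells of a type and less RNA per cell cannot be told apart.

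Many of the genes that differed between the sexes lie in tandem arrays of related copies, and the sequences upstream of them show how alike neighbours with opposite sex differences can be. The 250 bases before the annotated start are shown for 5 of them, from RefSeq (GRCm38.p6); 31 of the 45 genes matched the RefSeq promoter table. Capitals mark a TATA box (TATAAA, or TTTATA on the other strand) or a STAT-type motif (TTCNNNGAA). Cyp2d9, at chr15:82452127-82452376 on the plus strand, and Cyp2d10, at chr15:82407195-82407444 on the minus strand, are next to each other and differed between the sexes in opposite directions. Aligned, they had 209 identical bases, which is 83.6% of the window, and each holds its TATA box, 28 bases before the start in Cyp2d9 and 31 in Cyp2d10.
Cyp2d9: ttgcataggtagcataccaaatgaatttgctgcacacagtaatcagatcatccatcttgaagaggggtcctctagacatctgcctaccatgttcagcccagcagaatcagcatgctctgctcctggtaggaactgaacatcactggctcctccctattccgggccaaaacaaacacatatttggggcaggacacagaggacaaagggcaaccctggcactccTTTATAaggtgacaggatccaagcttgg
Cyp2d10: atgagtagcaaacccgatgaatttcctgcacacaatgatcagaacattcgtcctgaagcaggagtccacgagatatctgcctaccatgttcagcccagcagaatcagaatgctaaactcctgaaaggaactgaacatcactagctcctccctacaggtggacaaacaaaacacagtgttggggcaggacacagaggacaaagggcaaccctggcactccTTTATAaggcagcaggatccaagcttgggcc
Cyp2d26, the female-high gene at the end of the same cluster (chr15:82794246-82794495, minus strand), also has a TATA box 31 bases before the start. Cyp2j13 (chr4:96077541-96077790, minus strand) was detected in males alone and holds neither motif in this window. It has 2 windows listed, of which the first was used and the other was not searched. Cyp4b1 (chr4:115647722-115647971, minus strand) holds the STAT-type motif 187 bases before the start.
Cyp2d26: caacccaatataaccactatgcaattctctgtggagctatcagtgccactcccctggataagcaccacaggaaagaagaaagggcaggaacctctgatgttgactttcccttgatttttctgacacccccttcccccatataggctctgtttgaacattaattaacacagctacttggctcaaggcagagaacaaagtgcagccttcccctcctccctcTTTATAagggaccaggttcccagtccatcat
Cyp2j13: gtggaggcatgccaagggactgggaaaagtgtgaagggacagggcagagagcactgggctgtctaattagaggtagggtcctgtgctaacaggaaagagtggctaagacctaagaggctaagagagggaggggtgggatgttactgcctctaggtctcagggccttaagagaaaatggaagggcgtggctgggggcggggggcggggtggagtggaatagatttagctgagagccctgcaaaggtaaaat
Cyp4b1: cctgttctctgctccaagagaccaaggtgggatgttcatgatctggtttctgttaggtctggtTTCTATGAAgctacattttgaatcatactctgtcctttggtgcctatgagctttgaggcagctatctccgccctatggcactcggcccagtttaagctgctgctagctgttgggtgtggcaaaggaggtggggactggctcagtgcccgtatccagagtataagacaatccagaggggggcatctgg
Over the same window on both strands, TATAAA was found in 13.0% of 27025 genes, and in 3 of 5 matched genes higher in males (Cyp2a4, Cyp2d9 and Cyp2e1) and 3 of 5 lower in males (Cyp2d10, Cyp2d26 and Cyp2d40). TTCNNNGAA was found in 7.18% of genes and only in Cyp4b1 among those 10. Over all 31 matched members, TATAAA was found in 9 and TTCNNNGAA in 3. Of 3 further motifs searched, AGGTCA was in 0 of those 10 genes (13.8% of all genes), TGTTCT in Cyp4b1, Cyp2d10 and Cyp2d26 (16.2%) and an HNF1-type motif in 0 (0.0074%). These are matches of letters and not measured binding.

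Males and females differed in a large share of these genes. In males 9 of the 45 were higher (20.0%, against 1.52% of all genes tested) and 9 were lower (20.0%, against 2.2%), so 18 of 45 changed in either direction (3.73% of all genes). At an unadjusted p under 0.05 there were 24 members (53.3%, against 21.5%). Without mutant male 2 the counts were 6 higher and 6 lower. The absolute sex difference exceeded 1 for 18 members (2.99% of all genes) and exceeded 2 for 9 members (20.0%, against 0.545%). Its median was 0.45 over the 45 members and 0.18 over all genes tested. All males lay above all females for 9 members (20.0%, against 5.53% of all genes), and all females above all males for 8 (17.8%, against 8.47%). Cyp2j13 and Cyp4f15 were detected in males alone and so entered through the males, and Cyp2j13 had to differ. Restricted to the 39 members detected on 2 or more arrays of each sex, 8 were higher and 9 lower. The share of all genes under the same restriction was not computed, and the share without mutant male 2 is not given. Those counts therefore have no background beside them.

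**Figure D1:**
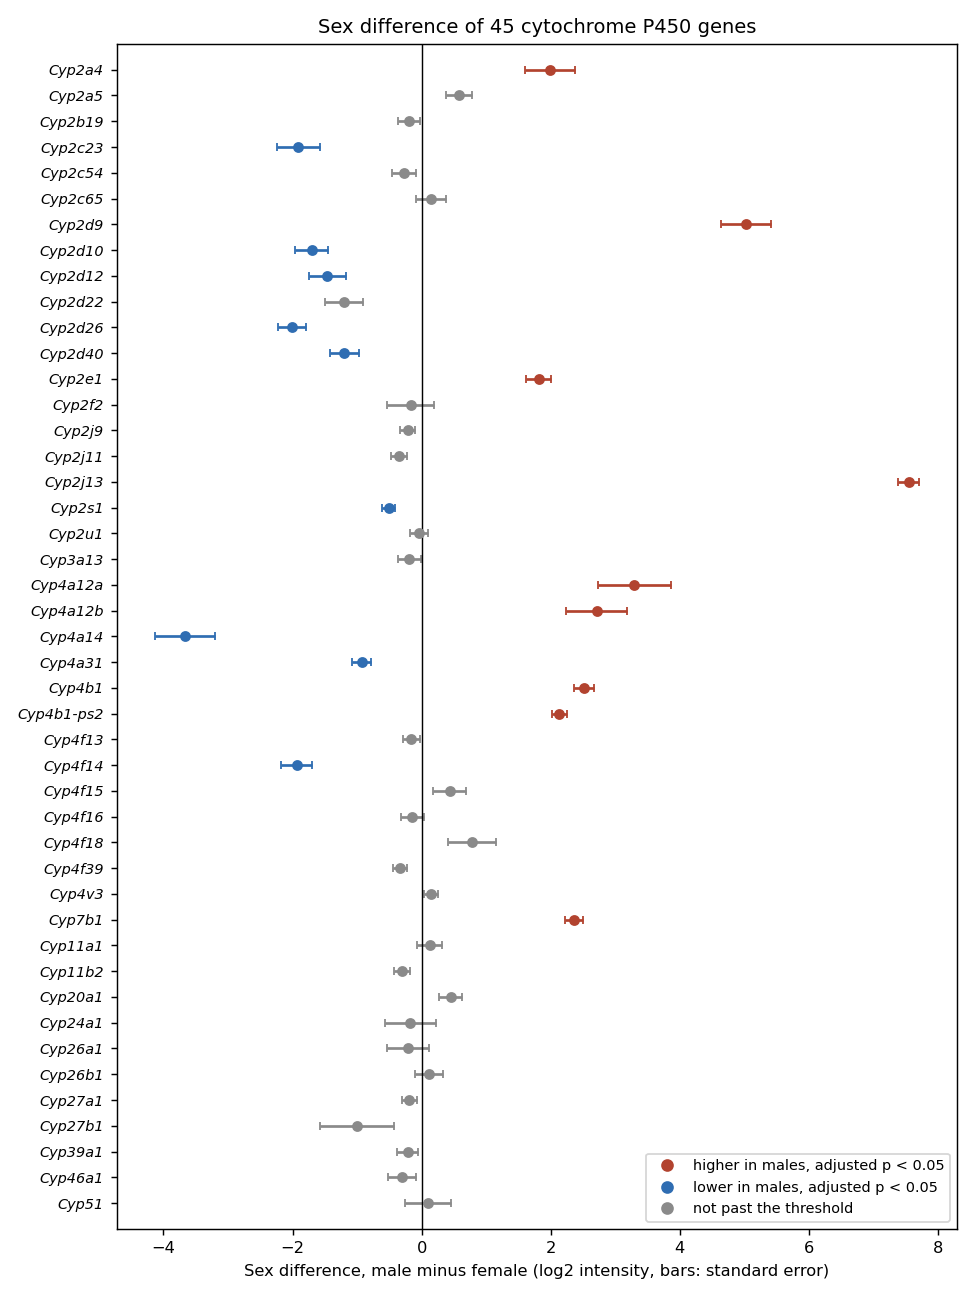
Male minus female difference of each of the 45 genes on the log2 scale, with its standard error as a bar, arranged by subfamily. Cyp2j13 at 7.55, with females below detection, and Cyp2d9 at 5.03 lie farthest to the right, Cyp4a14 at -3.67 lies farthest to the left, and 27 genes are grey because they did not pass the threshold.

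Among the epoxygenase subfamilies, Cyp2j13 stood far above the detection limit in males and below it in females, while the differences of its tested relatives did not pass. Its probe (ILMN_2777576) read 12.73 and 12.32 in mutant males and 12.44 and 12.26 in wildtype males, against 5.10 and 4.71 in mutant females and 5.06 and 4.69 in wildtype females. Males were high on all 4 arrays, and no female array passed the detection limit. With this processing the level was at least 148-fold higher in males (limma difference 7.55 ± 0.16, adjusted p = 4.15e-06). The bound sets the male mean against, per female array, the higher of the lowest detected signal and the probe's own. Because females were below detection, the fitted difference is not an exact size. On the authors' processed values it was 4.81, a smaller ratio than the bound, so the bound holds for this processing only.
Cyp2j11 and Cyp2j9, other members of the arachidonic acid epoxygenase subfamily 2J, did not pass the test. Cyp2j11 averaged 13.08 ± 0.16 in males and 13.43 ± 0.27 in females (SD, n = 4 each), a difference of -0.35 (adjusted p = 0.184), and Cyp2j9 differed by -0.22 (adjusted p = 0.345). In the annotation's order Cyp2j13 opens the 2J array of chromosome 4, and Cyp2j12, Cyp2j8, Cyp2j6 and Cyp2j5 from the same array had no probe that was tested.

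Cyp2c23, a kidney arachidonic acid epoxygenase of rodents, was lower in males. It read 8.23 and 6.77 in mutant males and 7.53 and 6.85 in wildtype males, against 9.25 and 9.71 in mutant females and 9.10 and 8.97 in wildtype females. The sexes did not overlap, and the level was 3.76-fold lower in males (difference -1.91 ± 0.33, adjusted p = 0.0340), or -1.14 on the authors' processed values. Cyp2c54 (-0.28, adjusted p = 0.451) and Cyp2c65 (0.14, adjusted p = 0.782) were dim and did not pass, and 10 further Cyp2c genes on the array were not tested.

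The 4A fatty acid hydroxylases split by sex in both directions. Cyp4a12a, an omega-hydroxylase of arachidonic acid, read 14.55 and 14.31 in mutant males and 13.51 and 14.23 in wildtype males, against 11.65 and 9.32 in mutant females and 10.40 and 12.06 in wildtype females. Males were 9.81-fold higher (difference 3.29 ± 0.57, adjusted p = 0.0335), with females spread from 9.32 to 12.06. Its near-identical copy Cyp4a12b was 6.55-fold higher (2.71 ± 0.47, adjusted p = 0.0338), with 10.34 to 11.18 in males and 6.89 to 9.02 in females. Cyp4a14, a fatty acid hydroxylase, ran the other way, at 9.07 and 10.80 in mutant males and 11.39 and 9.75 in wildtype males, against 14.07 and 14.35 in mutant females and 13.41 and 13.84 in wildtype females. Males were 12.7-fold lower (-3.67 ± 0.47, adjusted p = 0.0119). Cyp4a31 was also lower in males by 0.93 ± 0.15, which is 1.91-fold (adjusted p = 0.0259).

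Of the 4B subfamily, Cyp4b1, which hydroxylates fatty acids and activates furan toxins, was high in every male. It read 15.24 and 14.81 in mutant males and 15.01 and 14.87 in wildtype males, against 12.30 and 12.73 in mutant females and 12.47 and 12.38 in wildtype females, a 5.71-fold difference (2.51 ± 0.15, adjusted p = 0.000606). Cyp4b1-ps2, annotated as a pseudogene of it, was 4.39-fold higher (limma 2.13 ± 0.12, adjusted p = 0.000414). It read 14.99 to 15.13 in males and 12.76 to 13.07 in females. Whether differences are compressed at signals as high as those of the males was not tested for either gene. No file held probe sequences, so whether the probes of such pairs (Cyp4b1 and Cyp4b1-ps2, Cyp4a12a and Cyp4a12b, Cyp4a14 and Cyp4a31) separate the copies was not tested.

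In the 4F subfamily, whose members oxidise leukotrienes and other fatty acids, only Cyp4f14, a leukotriene B4 omega-hydroxylase in the mouse, passed. It read 5.28 and 5.78 in mutant males and 6.17 and 5.81 in wildtype males, against 7.16 and 7.79 in mutant females and 8.30 and 7.54 in wildtype females. Males were 3.83-fold lower (-1.94 ± 0.24, adjusted p = 0.00997), or -0.66 on the authors' processed values, and 1 male array was under the detection limit. The other 5 members ranged from -0.34 (Cyp4f39, adjusted p = 0.146) to 0.78 (Cyp4f18, adjusted p = 0.290), and Cyp4f18 ran from 0.40 (without mutant male 2) to 1.17 (without mutant male 4) when 1 array was left out. Cyp4f16 had a further probe at -0.52 and another at 0.42 beside the represented one at -0.14, so its direction rests on the probe. Cyp4v3, the relative of a human gene of eye lipid metabolism, differed by 0.15.

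**Figure D2:**
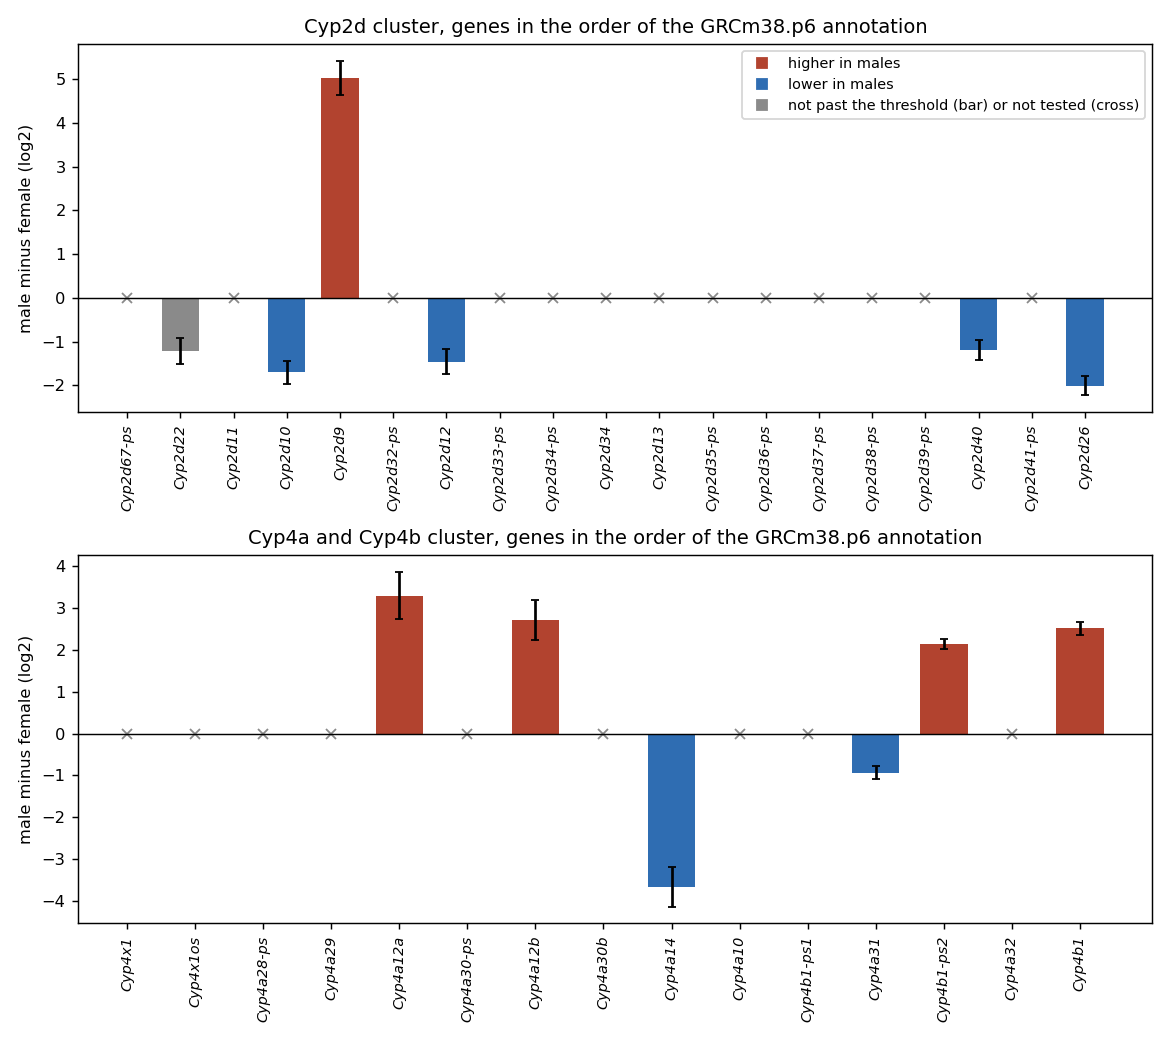
Male minus female difference (log2, bars are standard errors) of Cyp genes in their order in the GRCm38.p6 annotation, for the Cyp2d cluster of chromosome 15 and the Cyp4a and Cyp4b cluster of chromosome 4; crosses are genes that were not tested. Cyp2d9 at 5.03 stands among neighbours below 0, and Cyp4a14 at -3.67 and Cyp4a31 at -0.93 stand between genes that were higher in males.

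The 2D subfamily held the sharpest contrast between neighbours. Cyp2d9, a male-specific testosterone hydroxylase in mouse liver, read 13.52 and 11.70 in mutant males and 13.13 and 13.30 in wildtype males, against 7.15 and 7.90 in mutant females and 8.07 and 8.43 in wildtype females. Males were 32.7-fold higher (5.03 ± 0.39, adjusted p = 0.00175). The other 5 tested 2D genes were all below 0, and 4 of them passed. Cyp2d10, next to Cyp2d9, read 9.27 and 8.96 in mutant males and 8.25 and 7.75 in wildtype males, against 10.06 and 10.20 in mutant females and 9.82 and 10.94 in wildtype females. It was 3.25-fold lower in males (-1.70 ± 0.26, adjusted p = 0.0221). Cyp2d12, the next tested gene on the far side of Cyp2d9, was 2.75-fold lower (-1.46 ± 0.28, adjusted p = 0.0469).
Cyp2d26 read 11.63 and 11.92 in mutant males and 10.70 and 10.08 in wildtype males, against 12.65 and 13.11 in mutant females and 12.98 and 13.63 in wildtype females. Its 3 tested probes gave -2.010, -2.003 and -1.953, and the represented one was 4.03-fold lower in males (SE 0.22, adjusted p = 0.00655). Cyp2d40 was 2.29-fold lower (-1.20 ± 0.22, adjusted p = 0.0432), and it was the only called gene whose sexes overlapped, with wildtype male 4 at 7.72 above wildtype female 3 at 7.55. Cyp2d22 differed by -1.21 ± 0.29 and missed the threshold (adjusted p = 0.0830), and its dim further probe gave 0.10. Since 2D copies are alike in sequence, a probe named for one may also bind RNA of another, which was not tested.

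Among the other drug-metabolising P450s, Cyp2e1, which oxidises ethanol and acetaminophen, was higher in males. It read 15.20 and 15.25 in mutant males and 15.10 and 15.21 in wildtype males, against 14.07 and 13.18 in mutant females and 13.06 and 13.20 in wildtype females, a 3.51-fold difference (1.81 ± 0.20, adjusted p = 0.00627). Mutant female 1 stood nearest to the males. Males read as high as the bright tubule gene Slc34a1 (15.03 to 15.29 over the arrays). Whether differences are compressed at signals this high was not tested. Cyp2a4, a testosterone hydroxylase in the mouse, read 12.19 and 10.84 in mutant males and 12.22 and 11.88 in wildtype males, against 8.50 and 9.84 in mutant females and 10.61 and 10.22 in wildtype females. Males were 3.97-fold higher (1.99 ± 0.38, adjusted p = 0.0459), with a narrow gap between wildtype female 1 and mutant male 4. Its neighbour Cyp2a5, a coumarin hydroxylase, differed by 0.58 (adjusted p = 0.182), and its 5 probes gave 0.18 to 0.95. The windows upstream of Cyp2a4 and Cyp2a5 were 98.0% identical, and their transcripts are known to be close, so the probes may not separate them. Cyp2s1, found in epithelia, was 1.42-fold lower in males (-0.51 ± 0.10, adjusted p = 0.0495). Cyp2b19 (-0.19), Cyp2f2 (-0.17) and Cyp3a13 (-0.19) did not pass.

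Of 4 measured sterol and bile acid genes, 1 passed. Cyp7b1, an oxysterol and steroid hydroxylase, read 11.58 and 11.89 in mutant males and 11.62 and 11.18 in wildtype males, against 9.17 and 9.07 in mutant females and 9.19 and 9.38 in wildtype females. Males were 5.14-fold higher (2.36 ± 0.14, adjusted p = 0.000612), with every male above every female. Cyp51, a demethylase of cholesterol synthesis, differed by 0.10, the cholesterol hydroxylase Cyp46a1 by -0.30 and the oxysterol hydroxylase Cyp39a1 by -0.21; a further probe of Cyp39a1 gave 0.24.

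None of the 3 measured vitamin D genes passed. Cyp27b1, which makes the active hormone, read 6.33 and 6.10 in mutant males and 6.63 and 4.78 in wildtype males, against 5.33 and 6.69 in mutant females and 6.97 and 8.88 in wildtype females. The groups overlapped widely (difference -1.01 ± 0.57, adjusted p = 0.374), and the difference ran from -1.48 (without wildtype female 1) to -0.53 (without wildtype female 3) when 1 array was left out. Cyp24a1, which inactivates the hormone, differed by -0.18 (adjusted p = 0.854) and Cyp27a1, a sterol hydroxylase of mitochondria, by -0.19 (adjusted p = 0.405). Cyp11a1 and Cyp11b2, which open and close the path to aldosterone in adrenal cortex, differed by 0.12 and -0.30 and did not pass, and none of 6 adrenal cortex markers had a tested probe. The retinoic acid hydroxylases Cyp26a1 (-0.21) and Cyp26b1 (0.11) did not pass either. Cyp20a1, an orphan P450, differed by 0.45 and Cyp2u1 by -0.04, with a further Cyp2u1 probe at 0.21.

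**Figure D3:**
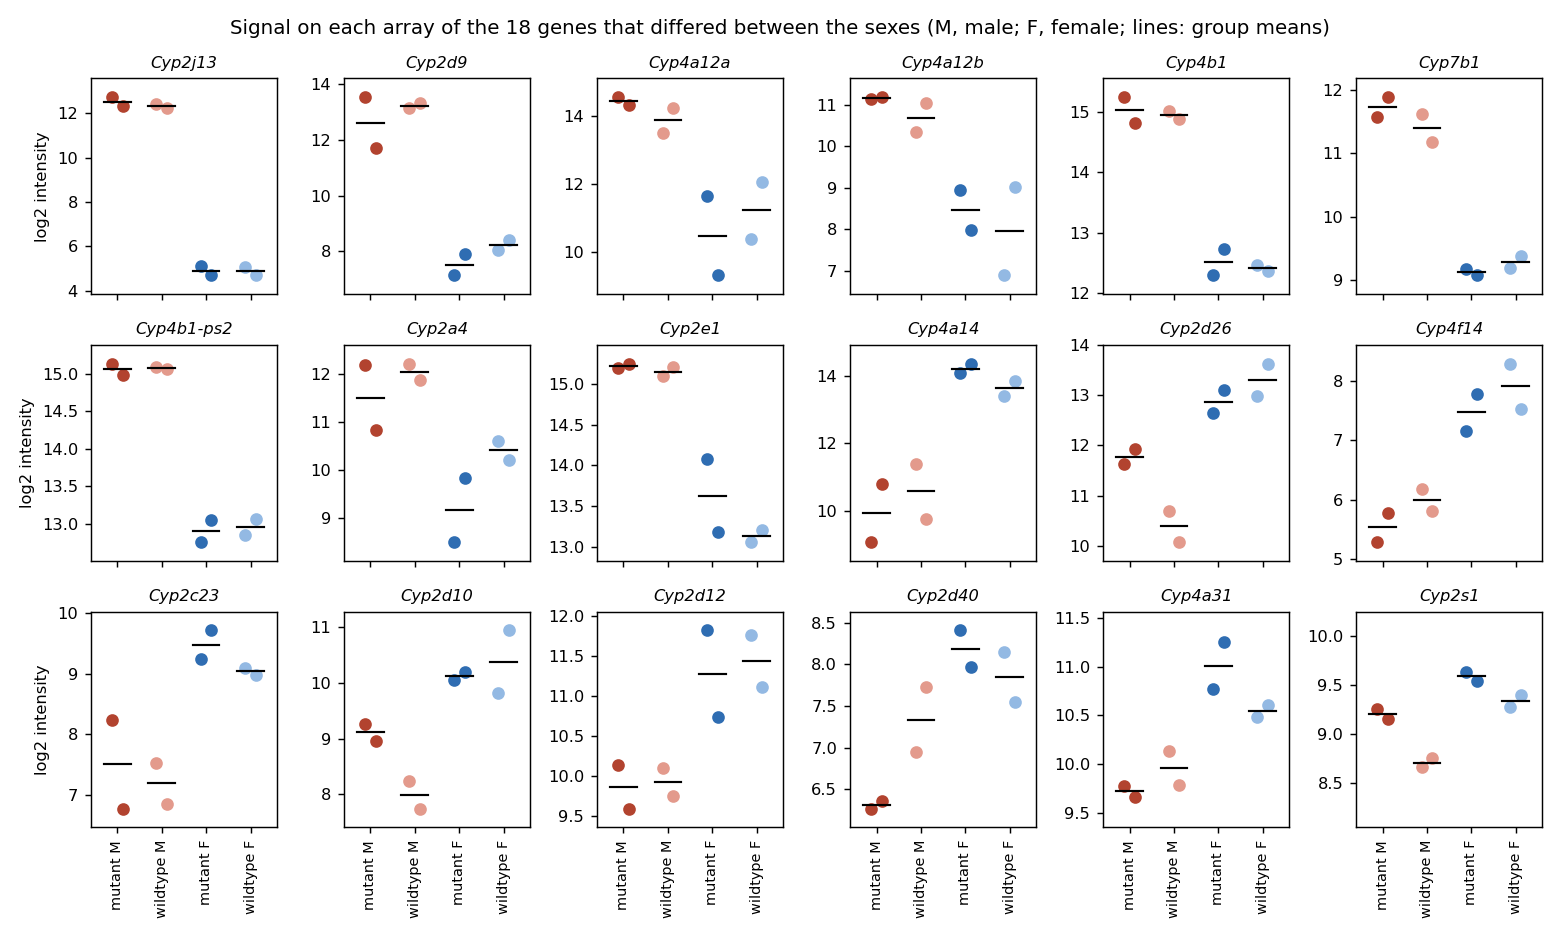
Log2 intensity on each of the 8 arrays for the 18 genes that differed between the sexes, with mutant males, wildtype males, mutant females and wildtype females from left to right and a line at each group's mean; each panel has its own axis. Cyp2j13 males lie between 12.26 and 12.73 and females between 4.69 and 5.10, whereas the sexes overlap in Cyp2d40.

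Calls varied in how far they rested on single arrays. Of the 18 genes, 8 passed in every processing alternative and every fit without 1 array that gave them a value: Cyp2j13, Cyp2d9, Cyp2d26, Cyp2e1, Cyp4b1, Cyp4b1-ps2, Cyp4f14 and Cyp7b1. The other 10 lost the call in at least 1 of them and kept their direction. Cyp2s1 lost it whichever of the 8 arrays was left out (adjusted p up to 0.153). Cyp2d12 kept it only without mutant female 3 (otherwise up to 0.152), Cyp2d40 only without wildtype male 4 (up to 0.133) and Cyp4a12a only without mutant female 1 (up to 0.113). Cyp2a4 kept it without mutant male 4 or mutant female 3, Cyp2c23 without either mutant male, Cyp4a12b without either wildtype female, and Cyp4a31 without mutant male 2 or mutant female 1. Cyp2d10 kept it without mutant male 2 or either wildtype female, and Cyp4a14 lost it without mutant female 3 or either wildtype female (up to 0.0543). With the replicate number as a random block, Cyp2a4 (adjusted p = 0.0581), Cyp2d12 (0.0550), Cyp2d40 (0.0522) and Cyp2s1 (0.0636) lost the call. With no filter on dim probes, Cyp4a12a (adjusted p = 0.0664), Cyp4a12b (0.0665), Cyp2c23 (0.0652), Cyp2a4 (0.0821), Cyp2d12 (0.0808) and Cyp2d40 (0.0711) lost it. Cyp2d40 also lost it on the authors' processed values, at a difference of -0.52 (adjusted p = 0.0561), and in an additive model (0.0930).

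The sex difference was then taken within each genotype. Among mutant arrays 5 members were higher in males (background 0.377% of all genes) and 0 lower (background 0.265%), and among wildtype arrays 6 were higher (0.569%) and 2 lower (0.729%). Cyp2j13 was detected on both male arrays of each genotype and on no female array, so its differences in the 2 genotypes cannot be compared in size. Cyp2d9 differed by 5.09 in mutants and 4.97 in wildtypes. Cyp4b1 differed by 2.51 in mutants and 2.52 in wildtypes, and Cyp7b1 by 2.61 in mutants and 2.12 in wildtypes. For Cyp2e1 the difference was 1.60 in mutants (adjusted p = 0.0788) and 2.02 in wildtypes (adjusted p = 0.0310), and for Cyp2d26 it was -1.10 in mutants (adjusted p = 0.238) and -2.92 in wildtypes (adjusted p = 0.0127). Across the 45 members, which are not independent replicates, the difference in mutants followed that in wildtypes with Pearson's r = 0.916 and Spearman's rho = 0.725, from separate arrays that were normalized together. Over the 39 members detected on 2 or more arrays of each sex, these were 0.878 and 0.700.

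**Figure D4:**
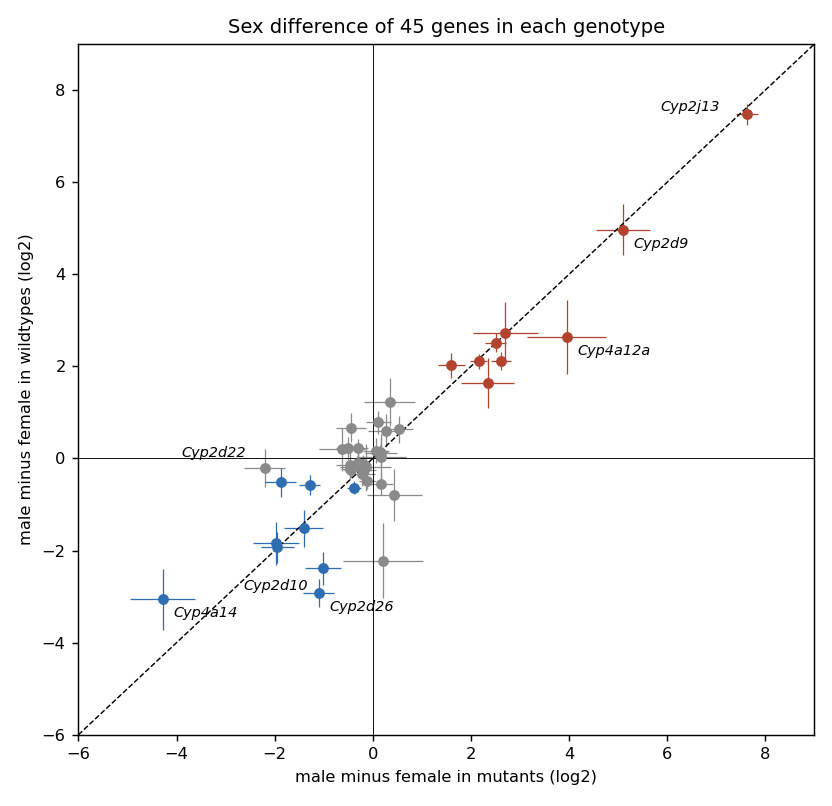
Male minus female difference (log2) in mutants on the horizontal axis against that in wildtypes on the vertical axis for the 45 genes, with standard errors; the dashed line marks equal values, red and blue mark genes higher and lower in males. Cyp2d9 lies near the line at 5.09 and 4.97, Cyp2j13 at the top right has females below detection, and Cyp2d22 lies off the line at -2.20 and -0.21.

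For genotype, the comparison that the series was built around, 0 of the 45 genes passed the threshold with limma, where 0.0401% of all genes tested passed. At an unadjusted p under 0.05 there were 6 members (13.3%, against 8.38% of all genes). The median genotype difference was 0.03 for the members and 0.02 over all genes. Cyp4f39, a hydroxylase of very long fatty acids of skin, had the smallest p (0.55 ± 0.11, adjusted p = 0.340). It read 5.26 and 5.42 in mutant males and 5.78 and 5.78 in mutant females. Wildtype males read 4.86 and 4.92, and wildtype females 5.02 and 5.24. No wildtype array passed the detection limit, so Cyp4f39 entered the set through the mutants. The bound was at least 1.24-fold with this processing. Cyp11b2 (0.51, adjusted p = 0.370), Cyp2s1 (0.38, adjusted p = 0.394), Cyp2u1 (0.47, adjusted p = 0.428) and Cyp2c54 (-0.56, adjusted p = 0.458) came next. All mutants lay above all wildtypes for 2 members (4.44%, against 1.82% of all genes), Cyp11b2 and Cyp4f39, which entered through the mutants. All wildtypes lay above all mutants for 1, Cyp2c54 (2.22%, against 1.23%), which was detected on only 4 of the 8 arrays. A dim gene can pass the detection rule through the genotype where it reads higher. The shares without overlap therefore follow in part from that rule and are given as a description. The probes of Cyp4f39, Cyp11b2, Cyp2u1 and Cyp2c54 were near background, and the Cyp11b2 probe may not separate it from its copy Cyp11b1. The 3 marker genes of the set had genotype differences of 0.10 for Cyp2j13, 0.29 for Cyp2e1 and -0.66 for Cyp2d9, with none past the threshold.
Within one sex the count was also 0, and all of these counts were 0 without mutant male 2. With limma, mutant against wildtype females gave 3 members at an unadjusted p under 0.05 (6.67%, against 3.86% of all genes). Mutant against wildtype males gave 8 (17.8%, against 11.1%). At the adjusted threshold neither comparison called any gene at all (0.0% of all genes tested).

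**Figure D5:**
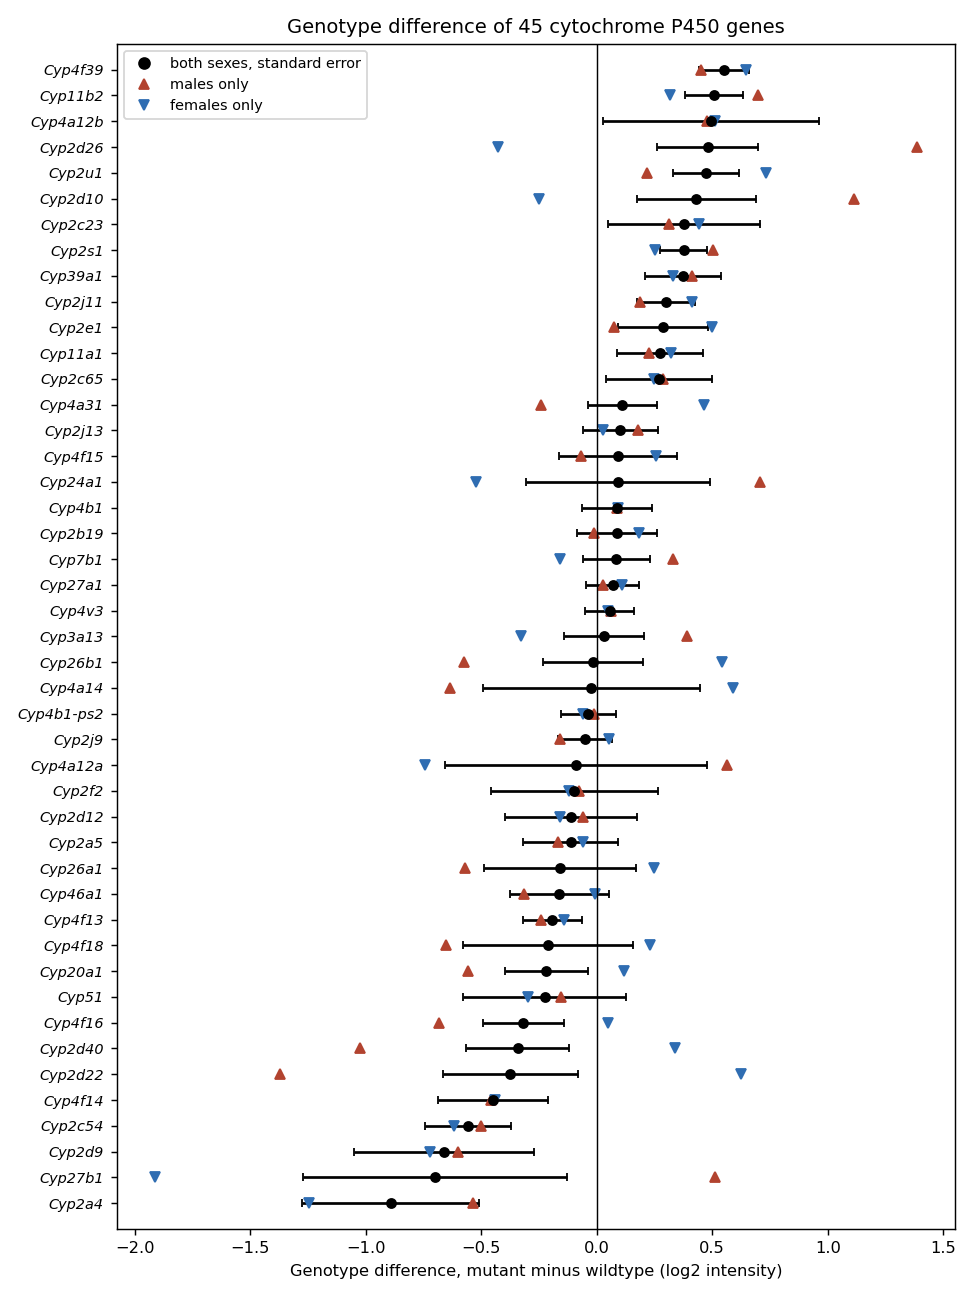
Mutant minus wildtype difference (log2) of the 45 genes in order of size, with its standard error, and the difference within males (triangles up) and within females (triangles down). Over both sexes every gene lies between -0.89 and 0.55. Male and female points lie far apart for Cyp27b1 (0.51 and -1.91), and also for Cyp2d26, Cyp2d10, Cyp2d22 and Cyp2d40.

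The test of whether the genotype effect differed between the sexes called 0 of 45 members, as it called 0.0% of all genes, with 6 members at an unadjusted p under 0.05 (13.3%, against 6.78%). Of these 6, 4 were 2D genes, and they ran in opposite directions. The genotype effect was larger in males than in females for Cyp2d26 (by 1.81 ± 0.44, adjusted p = 0.656) and Cyp2d10 (by 1.37 ± 0.52, adjusted p = 0.696), and the difference had the other sign for Cyp2d22 (-1.995 ± 0.59, adjusted p = 0.656) and Cyp2d40 (-1.36 ± 0.45, adjusted p = 0.656). In mutant males Cyp2d22 read 10.40 and 10.32, against 11.34 and 12.12 in wildtype males, while mutant females read 12.80 and 12.33 against 12.52 and 11.36 in wildtype females. Cyp2d26 ran the other way in males, at 11.63 and 11.92 in mutants against 10.70 and 10.08 in wildtypes. These values did not pass and are given as a description.

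Of 12 measured genes of a list of partners (electron and haem supply, further steps, and the prostanoid synthases Tbxas1 and Ptgis, which are P450s with other gene names), 1 was higher and 1 lower in males (16.7% called, against 3.73% of all genes). Ephx2, the soluble epoxide hydrolase that breaks down epoxides of arachidonic acid, was higher by 0.84 (adjusted p = 0.0176), and Tbxas1, thromboxane synthase, was lower by 1.07 on the log2 scale (adjusted p = 0.0450). The P450 reductase Por had no tested probe. Of 20 measured regulators of Cyp genes, 2 were lower and 0 higher in males, where 2.2% of all genes were lower. Nr1i2, the pregnane X receptor, read 5.75 to 6.28 in males, against 7.35 to 8.21 in females (-1.69, adjusted p = 0.00493), and Cebpa differed by -1.03 (adjusted p = 0.0429). Genotype called 0 in both lists. The lists hold genes chosen by function, and their median sex differences were 0.23 for partners and 0.0041 for regulators, against -0.02 over all genes.

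Cell type markers were also compared between the groups. The mean level of 14 proximal tubule markers was 11.51 to 11.98 in males and 12.01 to 12.25 in females, so the groups did not overlap, with 1 gene higher (Slc22a6, 1.23) and 3 lower (Slc5a2, Slc5a12 and Gatm) and a median difference of -0.22. The mean of 11 pan-endothelial markers was 11.28 to 12.83 in males and 11.40 to 11.81 in females, with 0 called and a median of 0.60. Between genotypes 0 markers of any of these lists were called. All 11 pan-endothelial genes had a value below 0 for genotype (median -0.60), with list means of 11.28 to 12.11 in mutants and 11.65 to 12.83 in wildtypes. All 3 fibroblast genes were above 0 (median 1.27), with 7.70 to 8.50 in mutants and 6.63 to 7.40 in wildtypes, which did not overlap, and so were all 4 collecting duct genes (median 0.38), with 10.76 to 11.46 in mutants and 10.53 to 10.99 in wildtypes. Their part in the differences of the Cyp genes was not tested. Just inside the detection rule stood Cyp4f15, on 2 arrays, and Cyp2c65 and Cyp4f39, on 3, and just outside stood Cyp2b23, Cyp2c67 and Cyp4f17, on 1 each, while 38 Cyp genes of the array were detected on none.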

How the data were processed

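RNA of 8 samples was hybridised to 1-colour Illumina BeadChips. Per the labels, RNA was extracted with a micro-scale column kit and biotin-labelled cRNA was amplified from it. The deposited table gives each probe's intensity, linear and apparently neither background-subtracted nor normalized, with a detection p-value beside it, per the file headers. The processed values deposited by the authors resemble log2 intensities, with medians from 7.46 to 7.47 and small differences between dim probes; no source used here says how they were made. Each of those columns matched its own array (r from 0.977 to 0.986) better than any other array (at most 0.443), and they served as an alternative. Columns without a matching sample numbered 0.

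The neqc function (limma 3.58.1, R 4.3.3) applied normexp correction based on detection p-values, an offset of 16, quantile normalization and log2. Python 3.11.15, pandas 2.3.3 and matplotlib 3.10.9 made tables and figures. Of 45281 probes, 23841 with detection p under 0.05 on 2 or more arrays were kept. Gene names came from the platform annotation, updated through Entrez identifiers (GRCm38.p6), with 0 Cyp symbols renamed. The gene table gave names and gene order only; promoter coordinates are those of RefSeq. A mean was fitted for each of 4 groups (4 residual and 3.05 prior degrees of freedom), and sex (male minus female), genotype (mutant minus wildtype), genotype within each sex and the interaction were tested with limma, two-sided. The model was tested on simulated data. Arrays have no read depth, so their number limits the precision.

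Genes were named by rule: the 3 markers Cyp2j13, Cyp2d9 and Cyp2e1; members past an adjusted p of 0.05; the highest and lowest sex difference in each subfamily with 2 or more members; the 5 smallest p-values for genotype and for interaction; and the vitamin D, steroidogenic, sterol and retinoic acid groups. The members and lists were chosen with earlier results of these data known. Alternatives were no background correction, median scaling, the authors' values, no filter, a filter on all 8 arrays, an offset of 50, the mean of a gene's probes, an additive model, replicate blocks, and leaving out each array. Same-numbered arrays of the 2 genotypes deviated together only weakly (correlation 0.100 in females and 0.269 in males). Since the design names pairs of mutant and wildtype mice, the numbers were taken as pairs in the replicate block alternatives. The main fit used no block, so its p-values do not use the pairing.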

Additional observations from a re-analysis of the deposited data

Results flagged for a closer look

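In 3 of 56 sets of 4 arrays (males or females of 28 genes), 1 array stood apart from the other 3 by Dixon's test at the 95% level, which chance gives in about 1 of 20 sets. Cyp2e1 read 14.07 in mutant female 1, the highest female, with the next at 13.20. Cyp2j11 read 13.32 in mutant male 2, the highest male, with the next at 13.02. Cyp4f18 read 4.59 in mutant male 4, the lowest male, with the next at 5.96.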

How the results depend on the processing

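Across processing settings and fits without 1 array, values of single genes kept their direction and their side of the threshold in 620 cases, lost the call in 73 and changed sign in 11; all 11 were in genes that did not pass. The number of genes higher in males stayed between 6 and 9 and the number lower between 3 and 9. Leaving out 1 array at a time gave 6 to 7 genes higher and 3 to 6 lower. In the added analyses within a genotype, chosen after seeing the data, mutant arrays alone gave 5 higher and 0 lower, and wildtype arrays alone gave 6 higher and 2 lower; fewer arrays enter each. Without the filter on dim probes 6 were higher and 6 lower, with more probes tested. Counts for genotype, genotype within each sex and the interaction stayed at 0 in every alternative run.

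With the replicate number as a fixed block, the genotype effect and the interaction called 0 genes and no other call changed. A fixed block could not be fitted for the sex effect, since each number belongs to 1 sex. The random block (correlation 0.084) gave 8 higher and 6 lower. The share of all genes called is not given for the processing settings, the random block or the fits without 1 array. Their counts for the sex effect therefore have no background beside them.

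Sign changes came from leaving out 1 array for Cyp11a1 (-0.055 to 0.30), Cyp24a1 (-0.56 to 0.21, and 0.15 without mutant male 4), Cyp26a1 (-0.51 to 0.087, and 0.016 without wildtype male 4), Cyp26b1 (-0.12 to 0.34), Cyp2c65 (-0.094 to 0.38) and Cyp51 (-0.29 to 0.49). Cyp39a1 gave 0.015 with the mean of its probes, whose further probe has the other sign. Signals near background limit what can be said of the dim genes.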
